A study of Arabidopsis thaliana with 9 samples.

Results

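The BGLU genes of Arabidopsis thaliana encode beta-glucosidases of glycoside hydrolase family 1, enzymes that take the glucose off stored glucosides. They were followed in whole seedlings exposed to silver nitrate. The 32 BGLU loci described here were chosen by family name, with earlier results of these data known, and are not the whole family. BGLU26, BGLU28 and BGLU30 were left out, and further BGLU and TGG loci outside the 32 are given near the end. Of the 32, 30 had a probe on the array, and 26 were measured. Measured means that at 1 time or more the probe was well above background on each of the 3 arrays. In all, 21042 genes met that condition. No probe carried the locus of BGLU5 or BGLU6. BGLU4, BGLU13, BGLU19 and BGLU29 did not pass: BGLU4 and BGLU19 were above background on 1 of 9 arrays each, and BGLU13 and BGLU29 on 0 of 9. Of the 26, 25 were above background on all 9 arrays and BGLU31 on 8.

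Plants keep many defence compounds, hormones and cell wall precursors as glucosides, which are inert and soluble, and a glucosidase releases the active molecule. Several family members meet their substrates only after cell damage, because enzyme and glucoside lie in different compartments. In Arabidopsis some members fill the ER body, a spindle-shaped compartment of the endoplasmic reticulum of roots and young seedlings. Others are myrosinases, which split the sulfur-containing glucosinolates, and others act on conjugates of abscisic acid, lignin precursors, coumarins or flavonols.

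The plants were Col-0 seedlings of 3 weeks, kept for 1 week on agar and 2 weeks in shaken liquid medium under continuous light. Silver nitrate was added to 0.1 mM, and plants were taken at once (0 h) or after 48 or 72 hours. The labels describe 3 independent experiments per time with different plants, which gives 9 single-dye (Cy3) arrays. Every comparison uses the 0 h plants of this series, so silver and the extra 48 or 72 hours in culture cannot be told apart. Silver ions are also known to block ethylene perception. The sequences of the proteins, promoters and probes are not shown here.

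Values below are scaled log2 signals: log2 of the background-subtracted intensity minus the 75th percentile of that array, so that a step of 1 is a 2-fold step. Levels of different genes are not compared, since each probe binds with its own strength. On each array 65.4% to 68.3% of spots exceeded background clearly, and the 75th percentile lay between 1612 and 3732 intensity units. Replicate 1 of each time shared slide 1 and replicate 2 shared slide 2, whereas replicate 3 of 0 h and 48 h shared slide 3 and replicate 3 of 72 h was on slide 4. Among the 26 genes the standard deviation between arrays of a time had a median of 0.39 at 0 h, 0.30 at 48 h and 0.31 at 72 h, against 0.27, 0.20 and 0.16 over all genes. All 10 green shoot markers and all 16 root markers listed were measured, beside 1 of 6 seed markers, in plants labelled as whole seedlings. Changes are log2 differences ± limma's standard error, with 3 arrays per time and the Benjamini-Hochberg adjusted p over all genes. The variance of a gene is shared by all 9 arrays, so a wide spread at any time enters every comparison of that gene.

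Beta-glucosidase transcripts changed in both directions, and most of those called were higher. At 48 h 15 of 26 genes passed an adjusted p of 0.05 relative to 0 h, 11 higher and 4 lower, where 30.0% of all genes tested passed (14.2% higher, 15.8% lower). At 72 h 17 passed, 14 higher and 3 lower, where 36.2% of all genes passed (16.9% higher, 19.4% lower). The median change of the 26 was 0.62 at 48 h and 0.71 at 72 h, beside 0.015 and 0.0072 for all genes. Changes of at least 2-fold were called for 10 genes at 48 h (8 higher, 2 lower) and 11 at 72 h (9 higher, 2 lower), beside 17.1% and 21.0% of all genes. At an unadjusted p of 0.05, 18 and 19 of the 26 passed, beside 40.6% and 45.2% of all genes. At 72 h the rises of BGLU27, BGLU31 and BGLU32 were above 4 log2 units, though smaller with another treatment of dim spots given below, and the falls of the root myrosinase genes BGLU34 and BGLU35 were above 3. Both comparisons share the 0 h arrays. With slides 3 and 4 removed, which leaves 2 arrays per time, 5 genes were called at 48 h (5 higher, 0 lower) and 10 at 72 h (8 higher, 2 lower). The share of all genes called with these fewer arrays is not given here, so the drop cannot be read as particular to the glucosidase genes.

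**Figure D1:**
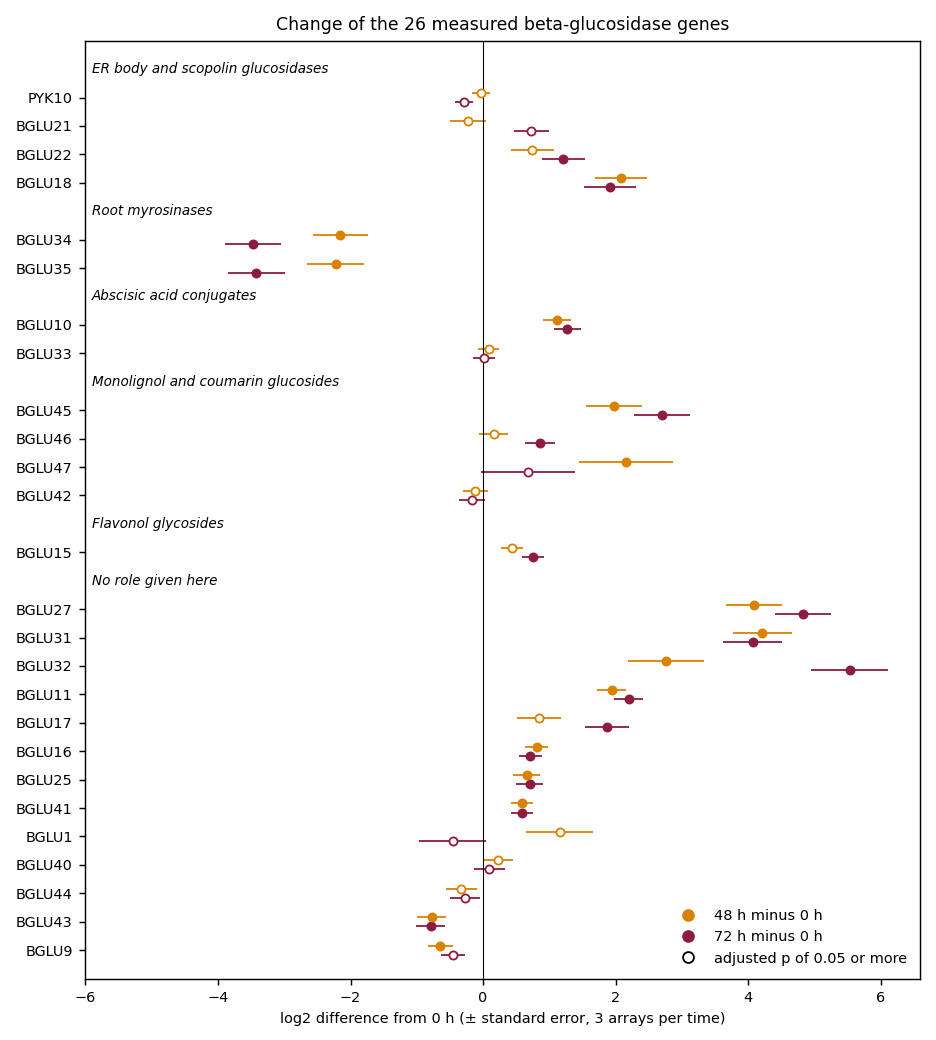
Change of each of the 26 measured beta-glucosidase genes at 48 h and 72 h, as log2 difference from 0 h on the horizontal axis (± standard error, 3 arrays per time), grouped by known role. Filled points passed an adjusted p of 0.05 and open points did not; BGLU34 and BGLU35 lie furthest to the left, and BGLU27, BGLU31 and BGLU32 furthest to the right.

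BGLU27 (AT3G60120) read -4.12, -4.66 and -4.91 at 0 h, 0.012, -1.36 and -0.069 at 48 h, and 0.89, -0.27 and 0.17 at 72 h. Every array in silver lay above every 0 h array, by more than 2 log2 units at the nearest. The rise was 17.0-fold at 48 h (4.09 ± 0.43, adjusted p = 0.000301) and 28.4-fold at 72 h (4.83 ± 0.43, adjusted p = 0.000105). Within slides 1, 2 and 3 the 48 h difference was 4.13, 3.30 and 4.84, and within slides 1 and 2 the 72 h difference was 5.01 and 4.39. A slide block gave a rise of 4.09 (adjusted p = 0.00148) at 48 h and 4.89 (adjusted p = 0.00183) at 72 h. With normexp background correction with an offset, another way to treat dim spots, the rises were 3.11 and 3.73, the lowest over the 20 alternatives, and both were called.

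BGLU31 (AT5G24540) and BGLU32 (AT5G24550) are neighbours on chromosome 5, and the signal of both was dim at 0 h. BGLU31 read -7.59, -6.06 and -6.81 at 0 h, -2.79, -3.16 and -1.87 at 48 h, and -2.66, -3.20 and -2.40 at 72 h. Its 0 h arrays included 1 that was not well above background, and all 6 arrays in silver were higher. Its passing the filter rested on 48 h and 72 h, where it was high. Its calls and fold changes used that dim 0 h value. It rose by 4.22 ± 0.44 at 48 h (adjusted p = 0.000315) and 4.07 ± 0.44 at 72 h (adjusted p = 0.000259), or 18.6-fold and 16.8-fold. BGLU32 read -6.11, -6.24 and -6.88 at 0 h, -5.06, -3.53 and -2.36 at 48 h, and -1.05, -0.56 and -1.03 at 72 h. The 48 h arrays were spread over more than 2 log2 units between the 0 h and the 72 h arrays, and the 3 times did not overlap. BGLU32 rose by 2.76 ± 0.58 at 48 h (adjusted p = 0.00753) and by 5.53 ± 0.58 at 72 h (adjusted p = 0.000216), or 46.2-fold. Within slides 1, 2 and 3 its 48 h difference was 1.05, 2.71 and 4.51, beside 4.80, 2.90 and 4.94 for BGLU31. Within slides 1 and 2 its 72 h difference was 5.07 and 5.68, beside 4.93 and 2.86 for BGLU31. Normexp correction gave 2.11 and 1.98 for BGLU31 at 48 h and 72 h and 1.13 (adjusted p = 0.108) and 3.53 for BGLU32. The 48 h call of BGLU32 also ended once slides 3 and 4 were removed (1.88, adjusted p = 0.0728), the 48 h rise was 3.46 or 2.12 when the first or the third 48 h array was dropped, and a slide block gave 2.76 (adjusted p = 0.0265).

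BGLU11 (AT1G02850) read 1.07, 1.48 and 1.01 at 0 h, 2.69, 3.47 and 3.22 at 48 h, and 3.38, 3.26 and 3.53 at 72 h. All 6 arrays in silver were above all 0 h arrays, and the rise was 3.83-fold at 48 h (1.94 ± 0.22, adjusted p = 0.000425) and 4.60-fold at 72 h (2.20 ± 0.22, adjusted p = 0.000174). Its slide differences were 1.61, 1.99 and 2.21 at 48 h and 2.31 and 1.78 at 72 h. BGLU17 (AT2G44480) read -0.60, -0.40 and -1.20 at 0 h, 0.21, -0.20 and 0.33 at 48 h, and 1.79, 0.54 and 1.08 at 72 h. Its times did not overlap, but the difference at 48 h did not pass the test (0.85 ± 0.33, adjusted p = 0.0883) and that at 72 h did (1.87 ± 0.33, adjusted p = 0.00276). The 72 h call ended once slides 3 and 4 were removed (adjusted p = 0.0509), and the 48 h difference was called in the fit that lacked the first 72 h array (adjusted p = 0.0445). BGLU16 (AT3G60130) rose by 0.81 ± 0.17 at 48 h and 0.72 ± 0.17 at 72 h (adjusted p = 0.00829 and 0.0121), with arrays at 2.63, 2.67 and 2.85 at 48 h and 2.85, 2.58 and 2.43 at 72 h, against 2.19, 1.86 and 1.67 at 0 h. Both BGLU16 calls ended once slides 3 and 4 were removed (adjusted p = 0.0839 and 0.0529).

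**Figure D2:**
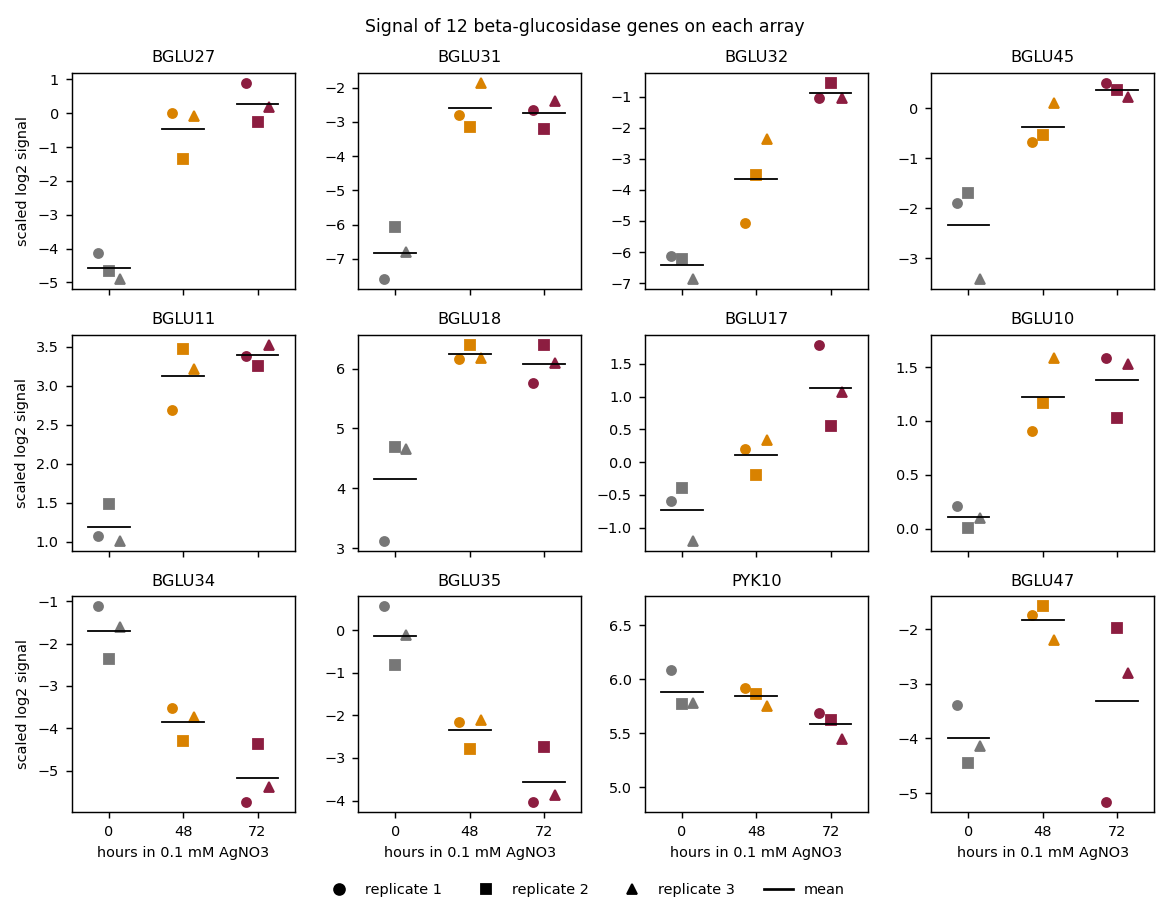
Scaled log2 signal (vertical axes, each panel with its own range) of 12 beta-glucosidase genes on every array against hours in 0.1 mM silver nitrate; symbols mark the replicate and bars the mean of 3 arrays. In BGLU27, BGLU31, BGLU32, BGLU45, BGLU11, BGLU18, BGLU17 and BGLU10 the arrays of both later times sit above all 0 h arrays. In BGLU34 and BGLU35 they sit below them, and PYK10 stays within 1 log2 unit throughout. The share of all genes without such overlap is not given here.

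PYK10 (AT3G09260, also called BGLU23), BGLU21 (AT1G66270) and BGLU22 (AT1G66280) encode the abundant glucosidases of root ER bodies, which hydrolyse scopolin, the glucoside of the coumarin scopoletin, and in the case of PYK10 also indole glucosinolates. PYK10 read 6.09, 5.77 and 5.78 at 0 h, 5.92, 5.86 and 5.75 at 48 h, and 5.68, 5.63 and 5.45 at 72 h. Its change was -0.034 ± 0.13 at 48 h (adjusted p = 0.883, 95% interval -0.34 to 0.27) and -0.29 ± 0.13 at 72 h (adjusted p = 0.126, interval -0.60 to 0.014). The interval at 72 h therefore leaves out a 2-fold change in either direction, although the 72 h arrays lay just below the others. The sign depended on the scaling: quantile normalization gave differences of 0.34 and 0.084, and the authors' value table, in which the median of all genes was 0.15, gave 0.10 at 48 h. None of these passed the test.

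The neighbouring genes BGLU21 and BGLU22 encode close relatives of each other, so their probes may share some signal. BGLU21 read 3.65, 2.88 and 2.85 at 0 h, 2.75, 2.65 and 3.30 at 48 h, and 4.14, 3.76 and 3.67 at 72 h. Neither difference was called, -0.23 ± 0.27 at 48 h (adjusted p = 0.574) and 0.73 ± 0.27 at 72 h (adjusted p = 0.0615), although the 72 h arrays lay above the 0 h arrays. The 72 h difference was called once the first 0 h array was dropped (0.99, adjusted p = 0.0110), and also under quantile normalization (adjusted p = 0.0281) and in the value table (adjusted p = 0.0280). BGLU22 read 3.65, 2.85 and 2.39 at 0 h, 3.52, 3.69 and 3.91 at 48 h, and 4.64, 4.05 and 3.83 at 72 h. It was not called at 48 h (0.74 ± 0.33, adjusted p = 0.123) and rose at 72 h (1.21 ± 0.33, adjusted p = 0.0193). That call ended under a slide block (adjusted p = 0.0549), after removal of slides 3 and 4 (adjusted p = 0.0784), and after removal of the first 72 h array or array 2 or 3 of 0 h (adjusted p = 0.0544 to 0.0632). Removal of the first 0 h array made the 48 h difference a call (1.09, adjusted p = 0.0169).

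BGLU18 (AT1G52400, also called ATBG1) encodes an ER body glucosidase of leaves and of wounded tissue that can free abscisic acid from its glucose ester. It read 3.13, 4.69 and 4.66 at 0 h, 6.16, 6.39 and 6.17 at 48 h, and 5.75, 6.40 and 6.09 at 72 h. One 0 h array, replicate 1, was lower than the other two, and all 6 arrays in silver were above every 0 h array. BGLU18 was 4.22-fold higher at 48 h (2.08 ± 0.39, adjusted p = 0.00467) and 3.79-fold higher at 72 h (1.92 ± 0.39, adjusted p = 0.00546). When that array was dropped the rises were 1.56 and 1.40, and both were still called. Within slides the 48 h difference was 3.03, 1.70 and 1.50, and the slide block gave 2.08 (adjusted p = 0.00852) at 48 h and 2.02 (adjusted p = 0.0161) at 72 h.

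Of 15 other genes for the structure of ER bodies and the protein complex around PYK10, 8 rose and 0 fell at 48 h, and 6 rose and 0 fell at 72 h, with medians of 0.72 and 0.46 beside 0.015 and 0.0072 for all genes. Those called were 53.3% and 40% of the list, beside 30.0% and 36.2% of all genes. The jacalin lectin gene JAL23 (AT2G39330) rose by 3.87 ± 0.51 at 48 h and 3.47 ± 0.51 at 72 h. TSA1 (AT1G52410), which encodes a relative of the ER body protein NAI2, rose by 2.86 ± 0.41 and 2.48 ± 0.41. The jacalin-related gene JAL35 (AT3G16470, JR1), a jasmonate-responsive gene, rose by 1.66 ± 0.27 and 1.42 ± 0.27. The summed linear signal of the 15 genes, in units of the array's 75th percentile, was 183 to 210 at 0 h, 295 to 355 at 48 h and 241 to 319 at 72 h. Bright probes weigh most in such sums, here and for the markers below. The ranges at 48 h and 72 h lay above that at 0 h, while PYK10 itself was not called. Removal of slides 3 and 4 left 4 of the 15 called at 48 h.

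BGLU34 (AT1G47600) and BGLU35 (AT1G51470) encode TGG4 and TGG5, the myrosinases of roots, which release toxic products from glucosinolates. BGLU34 read -1.11, -2.36 and -1.60 at 0 h, -3.52, -4.30 and -3.72 at 48 h, and -5.75, -4.37 and -5.39 at 72 h. BGLU35 read 0.56, -0.83 and -0.13 at 0 h, -2.17, -2.78 and -2.11 at 48 h, and -4.04, -2.74 and -3.88 at 72 h. In both genes all arrays in silver lay below all 0 h arrays, and at 72 h replicate 2 was the highest of its time. BGLU34 fell at 48 h (-2.15 ± 0.42, adjusted p = 0.00558) and at 72 h (-3.48 ± 0.42, adjusted p = 0.000423), and was 11.1-fold lower at 72 h (-2.83 with normexp). BGLU35 changed by -2.23 ± 0.43 (adjusted p = 0.00525) and -3.43 ± 0.43 (adjusted p = 0.000500), and was 10.7-fold lower at 72 h.

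Slide by slide, the values of the pair were close. The 48 h differences of BGLU34 on slides 1, 2 and 3 were -2.40, -1.94 and -2.12, beside -2.73, -1.96 and -1.99 for BGLU35, and on slides 1 and 2 the 72 h differences were -4.63 and -2.01, beside -4.60 and -1.92. The 2 genes encode closely similar proteins, so their probes may share signal and the 2 genes are not independent observations. Under a slide block BGLU34 gave -2.15 (adjusted p = 0.0299) at 48 h and -3.31 (adjusted p = 0.0153) at 72 h. After removal of slides 3 and 4 both calls at 48 h ended (adjusted p = 0.0861 and 0.0703), and those at 72 h held (adjusted p = 0.0238 and 0.0244).

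Root marker genes were followed beside them. Of 16 root markers 1 rose and 3 fell at 48 h, and 3 rose and 5 fell at 72 h, with medians of -0.47 and -0.55, and each was above background on at least 1 array at every time. Those called were 25.0% and 50% of the list, beside 30.0% and 36.2% of all genes. Over the 14 root markers above background on all 9 arrays, 1 rose and 2 fell at 48 h, and 3 rose and 3 fell at 72 h (medians -0.37 and -0.42). The other markers that fell passed the filter through times where they were high. COBL9 (AT5G49270), a wall gene of root hairs, fell by 5.70 ± 0.46 and the root hair regulator RSL4 (AT1G27740) by 4.82 ± 0.31 at 72 h, while WOX5 (AT3G11260), of the root stem cell niche, rose by 2.01 ± 0.19. With normexp these values were -4.36, -3.13 and 0.95, all called. The summed signal of the root markers, in the units above, was 9.70 to 14.0 at 0 h, 6.45 to 9.75 at 48 h and 7.31 to 8.04 at 72 h. Of the 10 green shoot markers 8 fell at 48 h and 9 at 72 h, or 80% and 90%, beside 30.0% and 36.2% called of all genes. Their summed signal was 650 to 723 at 0 h, 283 to 332 at 48 h and 259 to 306 at 72 h. The part of these shifts in the changes of the glucosidase genes was not tested. In whole plants, fewer cells of a type and less RNA per cell cannot be told apart.

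Other genes of glucosinolate breakdown were called mostly upward. Of 16, 9 rose and 1 fell at 48 h, and 7 rose and 1 fell at 72 h (medians 0.66 and 0.62), or 62.5% and 50% called, beside 30.0% and 36.2% of all genes. The close paralogs MBP1 (AT1G52040) and MBP2 (AT1G52030), which encode myrosinase-binding proteins, rose by 4.07 ± 0.86 and 3.55 ± 0.85 at 48 h and by 3.43 ± 0.86 and 2.72 ± 0.85 at 72 h. The first 0 h array was the lowest for both, and when it was dropped MBP1 rose by 3.13 and 2.49 and MBP2 by 2.43 and 1.60, all still called. No MBP call held once slides 3 and 4 were removed (adjusted p = 0.0585 to 0.0789), and the 72 h call of MBP2 also ended when array 2 or 3 of 48 h or of 72 h was dropped (adjusted p = 0.0515 to 0.111). The nitrilase gene NIT2 (AT3G44300) rose by 2.67 ± 0.44 and 3.23 ± 0.44, and by 1.92 at 48 h with slides 3 and 4 removed. The myrosinase genes of the shoot were not called: TGG1 (AT5G26000) differed by -0.064 ± 0.19 and -0.35 ± 0.19, and TGG2 (AT5G25980) by 0.66 ± 0.39 and 0.50 ± 0.39. BGLU26 (AT2G44490, PEN2), an atypical myrosinase of pathogen defence, differed by 0.22 ± 0.15 and 0.24 ± 0.15 (adjusted p = 0.299 and 0.247). Of 6 markers of the myrosin and guard cells, TGG1 and TGG2 included, 3 fell at 48 h and 3 at 72 h, namely MYB60, SCRM and FAMA. With slides 3 and 4 removed their 48 h calls ended (adjusted p = 0.193, 0.251 and 0.191), as they did in several other alternatives. At 72 h the SCRM and FAMA calls ended there too (adjusted p = 0.0645 and 0.0678). Those called were 50% of these markers at either time, beside 30.0% and 36.2% of all genes. The glucosinolate count for 48 h was 6 under median scaling and 2 after removal of slides 3 and 4.

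BGLU10 (AT4G27830) and BGLU33 (AT2G32860), like BGLU18, have been linked to hydrolysis of the abscisic acid glucose ester. BGLU10 read 0.21, 0.0094 and 0.10 at 0 h, 0.91, 1.17 and 1.59 at 48 h, and 1.58, 1.03 and 1.53 at 72 h. All arrays in silver were above those of 0 h, and the rise was 1.11 ± 0.21 at 48 h (adjusted p = 0.00465) and 1.27 ± 0.21 at 72 h (adjusted p = 0.00190). On single slides it was 0.70, 1.16 and 1.49 at 48 h, a call that ended once slides 3 and 4 were removed (adjusted p = 0.0606). BGLU33 read 0.87, 0.73 and 0.92 at 0 h, 1.14, 0.97 and 0.67 at 48 h, and 1.07, 0.65 and 0.84 at 72 h. Its times overlapped, and the differences were 0.085 ± 0.16 at 48 h (interval -0.29 to 0.46) and 0.015 ± 0.16 at 72 h (interval -0.36 to 0.39), intervals that leave out a 2-fold change.

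Of 15 measured genes of abscisic acid synthesis, conjugation and breakdown, 2 rose and 2 fell at 48 h, and 3 rose and 3 fell at 72 h. Those called were 26.7% and 40% of the list, beside 30.0% and 36.2% of all genes. Over the 14 genes above background on all 9 arrays, 1 rose and 2 fell at 48 h and 2 rose and 3 fell at 72 h (medians 0.048 and 0.082). The remaining riser was NCED5 (AT1G30100), a dioxygenase gene of abscisic acid synthesis named after its values were seen, which was not well above background on any 0 h array. Its passing the filter rested on the later times, where it was high, and its calls used 0 h values that were not above background. Against the lowest signal above background on the 0 h arrays NCED5 was at least 9.49-fold higher at 48 h and at least 8.23-fold higher at 72 h. NCED9 (AT1G78390), of the same enzyme family, was not called at 48 h (-1.02 ± 0.45), was called there with replicate as a block (adjusted p = 0.0268), and fell at 72 h (-2.06 ± 0.45, not called with slides 3 and 4 removed, adjusted p = 0.106). The hydroxylase gene CYP707A3 (AT5G45340), which starts the breakdown of the hormone, changed by -3.67 ± 0.15 and -3.89 ± 0.15. Its relative CYP707A2 (AT2G29090) changed by -1.09 ± 0.33 and -2.21 ± 0.33. The 48 h call of CYP707A2 ended with replicate as a block (adjusted p = 0.0501), with slides 3 and 4 removed (-0.74, adjusted p = 0.159), and on the loss of any 48 h array, of array 2 or 3 of 0 h or of the second 72 h array (adjusted p = 0.0517 to 0.121).

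BGLU45 (AT1G61810) and BGLU46 (AT1G61820) are neighbours whose enzymes hydrolyse glucosides of the lignin precursors, and BGLU47 (AT4G21760) belongs to the same clade. BGLU45 read -1.90, -1.71 and -3.42 at 0 h, -0.69, -0.53 and 0.10 at 48 h, and 0.50, 0.37 and 0.21 at 72 h. Replicate 3 of 0 h was the lowest array, and no array in silver overlapped with 0 h. BGLU45 rose by 1.97 ± 0.42 at 48 h (adjusted p = 0.00841) and 2.71 ± 0.42 at 72 h (adjusted p = 0.00143). Single slides gave 1.22, 1.17 and 3.53 at 48 h and 2.41 and 2.07 at 72 h, and after removal of slides 3 and 4 the 48 h rise was 1.20 and still called (adjusted p = 0.0124). BGLU45 was the only one of the 30 genes with a second probe, which was dimmer, not above background on 1 array of 0 h, and higher by 2.44 at 48 h and 3.09 at 72 h.

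BGLU46 read 1.89, 1.77 and 1.44 at 0 h, 1.85, 1.63 and 2.1 at 48 h, and 2.98, 2.22 and 2.47 at 72 h. It was not called at 48 h (0.16 ± 0.22, adjusted p = 0.643) and rose at 72 h (0.86 ± 0.22, adjusted p = 0.0166), a call that ended under a slide block (adjusted p = 0.0551), on removal of the third 0 h array (adjusted p = 0.0527) and on removal of slides 3 and 4 (adjusted p = 0.114). BGLU47 read -3.40, -4.46 and -4.13 at 0 h, -1.74, -1.58 and -2.19 at 48 h, and -5.17, -1.97 and -2.80 at 72 h. At 72 h its replicates spread over more than 3 log2 units, from below to above the 0 h arrays, the widest spread of the 26 genes. Its rise at 48 h (2.16 ± 0.71, adjusted p = 0.0492) was just past the threshold and ended in 11 of 20 alternatives (adjusted p = 0.0501 to 0.221). Among these were replicate as a block (adjusted p = 0.0698), a slide block (adjusted p = 0.0951), and the fits that lacked any 48 h array, array 2 or 3 of 0 h or the third 72 h array. All 48 h arrays lay above all 0 h arrays, and the 48 h call held when the first 72 h array was dropped. The standard error rests on all 9 arrays, so the wide spread at 72 h enters the 48 h test too. With 1 array left out in turn, the adjusted p at 48 h ran from 0.00271 to 0.140. At 72 h BGLU47 was not called (0.68 ± 0.71, adjusted p = 0.490), and was called when the first 72 h array was dropped (1.61, adjusted p = 0.0146).

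BGLU42 (AT5G36890) acts on coumarin glucosides in iron-starved roots and in resistance induced by soil bacteria. It read 0.19, 0.70 and 0.95 at 0 h, 0.60, 0.47 and 0.42 at 48 h, and 0.39, 0.60 and 0.36 at 72 h. The times overlapped and the differences were -0.12 ± 0.19 at 48 h (interval -0.56 to 0.32) and -0.17 ± 0.19 at 72 h (interval -0.60 to 0.27). Of 13 measured genes that make, conjugate or export monolignols and coumarins, 61.5% were called at 48 h and 61.5% at 72 h. Over all genes these shares were 30.0% and 36.2%. Of the 13, 10 were above background on all 9 arrays. Among these 4 rose and 1 fell at 48 h, and 5 rose and 0 fell at 72 h. Their medians were 0.84 and 0.93, beside 0.015 and 0.0072 for all genes. The other 3 were above background only at some times, so that their passing the filter rested on the times where they were high, and all 3 are named after their values were seen. The scopoletin hydroxylase gene AT3G12900 was at least 2.86-fold higher at 48 h and at least 3.12-fold higher at 72 h than at 0 h, and MYB72 (AT1G56160), a regulator of root coumarins, at least 4.26-fold and at least 1.90-fold. AT1G55290, a hydroxylase gene related to coumarin synthesis, was at least 7.77-fold lower at 48 h and at least 10.6-fold lower at 72 h. The feruloyl-CoA hydroxylase gene of coumarin synthesis (AT3G13610) rose by 2.18 ± 0.40 and 2.65 ± 0.40, and the alcohol dehydrogenase gene CAD5 (AT4G34230) of monolignol synthesis by 0.87 ± 0.16 and 1.13 ± 0.16. Both 48 h calls ended with slides 3 and 4 removed (1.60 and 0.78, adjusted p = 0.0539 and 0.0649). The coumarin synthase gene AT1G28680 was not called at 48 h (0.81 ± 0.27) and was with replicate as a block (adjusted p = 0.0260), and it rose at 72 h (1.25 ± 0.27).

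BGLU15 (AT2G44450) hydrolyses flavonol glucosides. It read -0.57, -0.75 and -0.68 at 0 h, -0.44, -0.38 and 0.13 at 48 h, and 0.12, 0.16 and -0.030 at 72 h. The 48 h difference was not called (0.44 ± 0.17, adjusted p = 0.0818), whereas that at 72 h was (0.75 ± 0.17, adjusted p = 0.00811). Of 8 measured flavonol genes 1 rose and 0 fell at 48 h, and 0 rose and 5 fell at 72 h (medians -0.31 and -1.03), or 12.5% and 62.5% called, beside 30.0% and 36.2% of all genes. With slides 3 and 4 removed 0 were called at either time. At 72 h the flavonol synthase gene FLS1 (AT5G08640) changed by -2.28 ± 0.51, the regulator gene MYB111 (AT5G49330) by -1.96 ± 0.46 and CHS (AT5G13930), the entry enzyme of the pathway, by -1.94 ± 0.59. The CHS call ended on the loss of array 1 or 3 of 72 h or of array 2 or 3 of 0 h (adjusted p = 0.0602 to 0.0993), and FLS1 gave -1.63 when the first 72 h array was dropped. The 72 h count was 2 when the first or the third 72 h array was dropped and 3 when array 2 or 3 of 0 h was.

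The remaining genes, for which no role is given here, moved little or unevenly. BGLU25 (AT3G03640) rose by 0.66 ± 0.20 at 48 h (adjusted p = 0.0392) and 0.71 ± 0.20 at 72 h (adjusted p = 0.0255), with 48 h arrays at 2.54, 2.94 and 2.80 and 72 h arrays at 2.72, 3.23 and 2.47, against 0 h arrays at 1.98, 2.19 and 2.13. The 48 h call of BGLU25 ended in 9 of 20 alternatives (adjusted p = 0.0540 to 0.149), among them the loss of any 0 h array, of array 2 or 3 of 48 h or of the first 72 h array, and the 72 h call in 5 of 20 (adjusted p = 0.0529 to 0.0670), among them the loss of any 0 h array or the second 72 h array. BGLU41 (AT5G54570) rose by 0.59 ± 0.17 and 0.59 ± 0.17 (adjusted p = 0.0281 and 0.0234), but its signal was dim and the sign turned with normexp background correction (-0.086 and -0.18, neither called). The 48 h call of BGLU41 also ended in 7 other alternatives (adjusted p = 0.0547 to 0.193), such as the loss of array 1 or 3 of 48 h or of array 2 or 3 of 0 h, and the 72 h call in 4 others (adjusted p = 0.0649 to 0.100), such as the loss of array 1 or 3 of 72 h or the second 0 h array.

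Besides the myrosinases, 2 genes were called lower. BGLU43 (AT3G18070), whose signal was dim, read -4.50, -4.80 and -4.81 at 0 h, -4.95, -5.71 and -5.76 at 48 h, and -5.46, -5.63 and -5.38 at 72 h. It changed by -0.77 ± 0.22 at 48 h (adjusted p = 0.0294) and -0.79 ± 0.22 at 72 h (adjusted p = 0.0228). The 48 h call ended in 6 of 20 alternatives (adjusted p = 0.0618 to 0.182), among them the loss of array 1 or 2 of 0 h or of array 2 or 3 of 48 h. The 72 h call ended in 5 (adjusted p = 0.0524 to 0.0870), among them the loss of the first 0 h array or of array 1 or 2 of 72 h. BGLU9 (AT4G27820) read -0.43, -0.61 and -0.75 at 0 h, -1.11, -1.35 and -1.26 at 48 h, and -0.89, -1.44 and -0.83 at 72 h. It was lower at 48 h (-0.64 ± 0.18, adjusted p = 0.0292), a call lost in 6 of 20 alternatives (adjusted p = 0.0687 to 0.108), among them the loss of array 1 or 2 of 0 h or of array 2 or 3 of 48 h, and was not called at 72 h (-0.46 ± 0.18, adjusted p = 0.0850). Under a slide block BGLU9 was called at 72 h too, at -0.61 (adjusted p = 0.0347).

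BGLU1 (AT1G45191), BGLU40 (AT1G26560) and BGLU44 (AT3G18080) were called at neither time. BGLU1 read -3.36, -2.89 and -2.08 at 0 h, -1.70, -1.20 and -1.96 at 48 h, and -4.23, -2.19 and -3.29 at 72 h. It was higher at 48 h by 1.15 ± 0.51 without passing the test (adjusted p = 0.127), and at 72 h differed from 0 h by -0.46 ± 0.51 (adjusted p = 0.521), with 95% intervals of -0.012 to 2.32 and -1.63 to 0.71 that include changes of more than 2-fold. BGLU40 differed by 0.23 ± 0.23 and 0.10 ± 0.23 (intervals -0.30 to 0.75 and -0.43 to 0.62). BGLU44 differed by -0.33 ± 0.23 and -0.27 ± 0.23 (intervals -0.86 to 0.20 and -0.80 to 0.26), and when the first 0 h array was dropped it was called lower at both times (-0.62 and -0.56, adjusted p = 0.0131 and 0.0160).

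**Figure D3:**
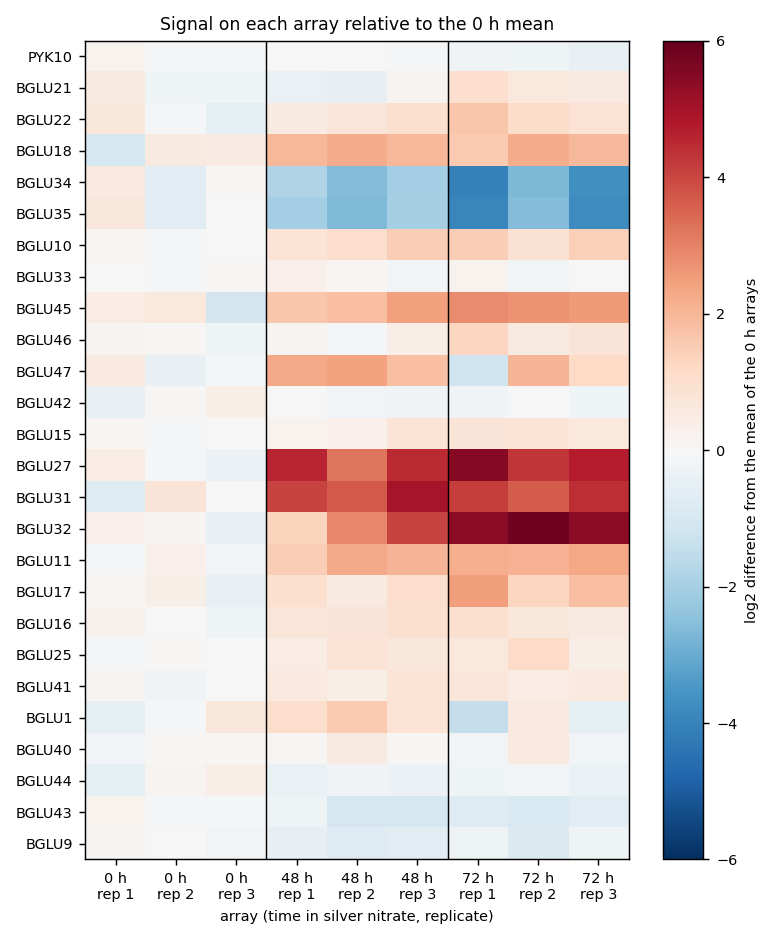
Signal of the 26 genes (rows) on each of the 9 arrays (columns, by time and replicate) as the log2 difference from the gene's mean over the 0 h arrays; red is higher and blue lower than at 0 h. BGLU27, BGLU31 and BGLU32 are red on all 6 arrays in silver, BGLU34 and BGLU35 are blue, and BGLU47 and BGLU1 differ between 72 h replicates.

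In RefSeq gene order (TAIR10.1), 6 pairs of the measured genes are direct neighbours. BGLU10 rose at both times whereas BGLU9 fell at 48 h. BGLU27 rose by 4.83 ± 0.43 at 72 h beside 0.72 ± 0.17 for BGLU16, and BGLU45 by 2.71 ± 0.42 beside 0.86 ± 0.22 for BGLU46. Both genes of a pair had the same sign at 72 h in all pairs except BGLU9 with BGLU10. Differences in change between the genes of a pair were not tested.

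**Figure D4:**
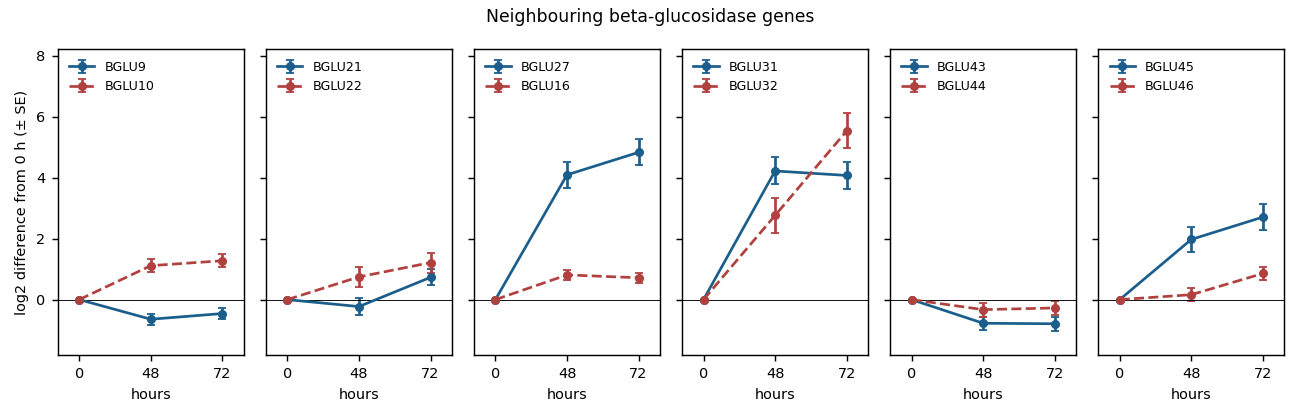
Log2 difference from 0 h (vertical axis, ± standard error, 3 arrays per time; 0 at 0 h by definition) against hours in silver nitrate for 6 pairs of neighbouring beta-glucosidase genes. BGLU9 and BGLU10 lie on opposite sides of 0, BGLU27 and BGLU45 lie above their neighbours, and BGLU32 passes BGLU31 between 48 h and 72 h.

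BGLU26, BGLU28 and BGLU30, which are not among the 32 loci, are also direct neighbours of measured genes. BGLU26, given above, lies beside BGLU17 and was not called at either time. BGLU30 (AT3G60140, DIN2), a gene of darkness and sugar starvation that lies beside BGLU16, rose by 5.75 ± 0.77 at 48 h and 6.44 ± 0.77 at 72 h. BGLU28 (AT2G44460), a gene of sulfur starvation beside BGLU15, rose by 4.66 ± 0.84 and 4.56 ± 0.84, and its 48 h call ended with slides 3 and 4 removed (adjusted p = 0.0650). When the first 0 h array was dropped the 48 h rises were 6.65 for BGLU30 and 3.86 for BGLU28, and both were called. Of the other BGLU and TGG loci, BGLU24 (AT5G28510) read -3.06, -2.37 and -2.91 at 0 h, 0.21, -0.48 and 0.077 at 48 h, and -0.81, -0.68 and -0.67 at 72 h and rose at both times (2.72 ± 0.23 and 2.06 ± 0.23, adjusted p = 0.000128 and 0.000285). BGLU8 (AT3G62750) fell at both times (-0.63 ± 0.17 and -0.77 ± 0.17, the first of which was lost when any 0 h array or array 2 or 3 of 48 h was dropped, adjusted p = 0.0512 to 0.0863), BGLU12 (AT5G42260) rose at 72 h (1.09 ± 0.27, but 0.44 and not called with normexp), and BGLU7 (AT3G62740) and BGLU39 (AT5G48375) were not called. Of these 15 loci, 10 were measured, and 3 rose and 1 fell at 48 h and 4 rose and 1 fell at 72 h. Those called were 40% and 50% of the measured loci, beside 30.0% and 36.2% of all genes.

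From 48 h to 72 h no beta-glucosidase gene passed the test, and limma called 0 of 21042 genes (0.00%). At an unadjusted p of 0.05, 7 of the 26 genes passed, where 9.17% of all genes did. The largest difference was that of BGLU32, 2.77 ± 0.58 higher at 72 h than at 48 h in 3 of 3 replicates (adjusted p = 0.172). BGLU17 (1.02 ± 0.33), BGLU21 (0.96 ± 0.27) and BGLU46 (0.70 ± 0.22) were higher at 72 h, and BGLU1 (-1.61 ± 0.51), BGLU34 (-1.32 ± 0.42) and BGLU35 (-1.20 ± 0.43) lower, with adjusted p between 0.274 and 0.426. None of the 26 genes was called between 72 h and 48 h under any of the 20 alternatives.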

How the data were processed

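The submitters' processing notes name Agilent Feature Extraction 9.5.3.1, and per the file headers the deposited signal is an intensity from which background and spatial trend were removed, with no scaling between arrays. The series' deposited value table holds a linear ratio per probe (column medians 0.901 to 1.11). Its differences between arrays run the same way as those of the scanner signals, its scaling per array and centring per probe stay unknown, and it served only as an alternative, as log2. The deposited scanner files hold other columns too, flags for spots above background, saturated (0 spots) or outlying (80 spots, dropped).

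Here control spots were left out, spots of a probe averaged, and log2 signals reduced by the array's 75th percentile over non-control spots. The brightest probe stood for a locus. The test was that of limma 3.58.1 (R 4.3.3), with 1 mean per time over all 9 arrays (6 residual and 2.54 prior degrees of freedom), and two-sided p-values were adjusted over 21042 genes. The script was tested on simulated data.

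Deviations from the time means correlated between same-numbered arrays of 48 h and 0 h at 0.26, 0.32 and 0.40 across genes. For 72 h and 0 h the values were 0.21, -0.0096 and 0.12. Same-numbered arrays of 48 h and 0 h also shared a slide, so a pairing of experiments and a slide effect cannot be told apart. The main fit had no block. Replicate as a block was an alternative, beside scalings, filters, probe means, slide and single arrays left out. Normexp (offset 50) used the median signal, since the files hold no mean signal. The family loci and gene lists were chosen with earlier results of these data known. All family loci could be named, and of each list up to 3 called genes with the largest change at 72 h and signal above background on all 0 h and 72 h arrays. Genes outside this rule are named as such. A bound (at least) sets the brighter time's mean against the lowest signal above background on each array of the dimmer time, or the probe's own where higher. RefSeq supplied symbols and gene order only, and no coordinates are given because the files name no build. Protein and promoter features that had been planned were not computed.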

Additional observations from a re-analysis of the deposited data

How the results depend on the processing

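The counts of called glucosidase genes were 12 to 15 at 48 h and 16 to 18 at 72 h under the 10 alternatives that kept all slides, against 15 and 17. They were 10 to 15 and 14 to 17 with 1 array left out in turn, and 5 and 10 without slides 3 and 4. The share of all genes called under each alternative is not given here. These counts, and those of the gene lists below, are therefore not set against it. The count between 72 h and 48 h was 0 under every alternative run. With the replicate block 14 genes were called at 48 h, without BGLU47 (2.16, adjusted p = 0.0698), and 17 at 72 h, and it changed no other call of the 26 genes against 0 h. The files hold no depth, and precision is limited by the number of arrays. Dim signal limits it too for some genes, among them BGLU31, BGLU32, BGLU41 and BGLU43, BGLU27 at 0 h and BGLU34 at 72 h.

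For the gene lists, leaving out slides 3 and 4 gave 4 ER body genes at 48 h, 2 and 3 glucosinolate genes at 48 h and 72 h, 5 monolignol and coumarin genes, 2 abscisic acid genes and 2 other BGLU and TGG genes at 48 h, and 0 flavonol genes at both times. Quantile normalization gave 13 ER body genes at 48 h, and normexp 5 monolignol and coumarin genes, against 8 of 13 measured. For glucosinolate breakdown at 48 h, median scaling and no filter each gave 6 and a fit on 2 times only 5. Flavonol genes numbered 3 at 72 h with the slide block, and 2 at 48 h and 3 at 72 h in fits on 2 times. With 1 array left out, glucosinolate counts at 48 h ran from 5 to 10 (5 or 6 when the first 72 h array, the second 0 h array or array 2 or 3 of 48 h was dropped), and flavonol counts from 1 to 2 at 48 h and 2 to 5 at 72 h. The causes were not tested.

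Some signs turned, and no turned value was called. PYK10 was 0.34 (quantile), 0.015 (normexp) and 0.10 (value table) at 48 h and 0.084 (quantile) at 72 h. BGLU33 was -0.018 at 48 h and -0.0056 at 72 h with median scaling, and -0.019 at 72 h with the slide block. BGLU41 was -0.086 and -0.18 with normexp. BGLU42 was 0.019 and 0.058 in the value table and 0.089 and 0.047 without slides 3 and 4, where BGLU46 was -0.088 at 48 h. With 1 array left out, the ranges were -0.98 to 0.0354 for BGLU1 at 72 h, -0.43 to 0.0339 for BGLU21 at 48 h, -0.0206 to 0.21 for BGLU33 at 48 h, -0.0934 to 0.12 for BGLU33 at 72 h, -0.15 to 0.22 for BGLU40 at 72 h, -0.33 to 0.0507 for BGLU42 at 48 h, -0.38 to 0.00204 for BGLU42 at 72 h and -0.0897 to 0.0702 for PYK10 at 48 h. In the value table the median of all genes was itself 0.15 at 48 h and 0.23 at 72 h, above PYK10's 48 h value and both of BGLU42.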
